A study of Mus musculus with 6 samples.

Results

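The SR splicing factors and the heterogeneous nuclear ribonucleoproteins (hnRNPs) were followed in the left ventricle of mice with a narrowed aorta. The genes were taken by name, as every row of the deposited gene table whose symbol starts with Srsf or Hnrnp, with pseudogene names (-ps) left out. This gave 30 genes of 24602 in the table, 10 Srsf genes and 20 Hnrnp genes. The rows of 3 pseudogenes were left out, with mean estimated counts between 4.17 and 14.5 per library. RNA came from the left ventricle of wild type mice 5 weeks after surgery, from 3 sham samples (Sham1 to Sham3) and 3 samples after transverse aortic coarctation (TAC1 to TAC3), an operation that constricts the aortic arch and loads the left ventricle with pressure. No drug, transgene or deletion is named in the labels. Whether the samples are from different animals is not in the labels. The p-values therefore speak of the spread among these 6 libraries and that spread may be technical.

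SR proteins carry an RNA-binding domain and a tail rich in arginine and serine. They bind exon sequences in the pre-mRNA and help the spliceosome to recognise the neighbouring splice sites. The hnRNPs coat nascent transcripts, and many of them act against SR proteins by hiding splice sites or exon enhancers. Both families regulate their own transcripts by splicing in exons or keeping introns that send the RNA to nonsense-mediated decay (NMD), so that a gene's RNA level and its protein output need not move together. In the heart, splicing of sarcomere and calcium-handling transcripts changes during development and disease, and Srsf1, Srsf5, Srsf10 and Hnrnpu have each been studied in mouse heart muscle.

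Among the 30 genes, base composition is the sequence feature along which the results below were ordered, and 3 coding stretches illustrate it. Each is the first 120 coding bases of the longest coding exon of the gene's longest coding transcript (GENCODE M21, GRCm38), 5′ to 3′, with G and C in capitals. Hnrnpa3 has the lowest GC content of the tested members in that transcript (39.9%), Hnrnpa2b1 the lowest adjusted p in the main comparison, and Srsf4 the highest GC content (56.8%). The main results on GC content below use the longest transcript of any type, in which Hnrnph1 is lowest (37.1%) and Hnrnpa0 highest (55.4%). A stretch can differ from its whole transcript.
Hnrnpa3, chr2:75661896-75662015, plus strand, exon 4 of 11: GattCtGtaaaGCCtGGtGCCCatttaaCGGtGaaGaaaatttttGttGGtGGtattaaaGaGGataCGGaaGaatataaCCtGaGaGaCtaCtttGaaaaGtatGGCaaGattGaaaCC
Hnrnpa2b1, chr6:51466586-51466705, minus strand, exon 5 of 12: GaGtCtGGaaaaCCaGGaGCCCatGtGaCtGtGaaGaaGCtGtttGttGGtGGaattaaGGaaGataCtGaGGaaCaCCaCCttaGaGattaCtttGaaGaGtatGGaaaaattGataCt
Srsf4, chr4:131900265-131900384, plus strand, exon 6 of 6: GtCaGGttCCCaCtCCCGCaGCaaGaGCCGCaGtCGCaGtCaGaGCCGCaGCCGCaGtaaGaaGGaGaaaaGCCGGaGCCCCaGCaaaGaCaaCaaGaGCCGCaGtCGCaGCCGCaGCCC
In the Hnrnpa3 stretch 45 of the 120 bases are G or C (37.5%), in Hnrnpa2b1 49 (40.8%) and in Srsf4 77 (64.2%).

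The estimated counts of a library added up to 64023153 at the least and 69992502 at the most. The test took genes whose FPKM averaged at least 1 over all libraries, which kept 8795 genes and 26 of the 30 members (8 SR and 18 hnRNP genes). FPKM is the deposited level, scaled for gene length and sequencing depth, and CPM is the estimated count scaled for depth alone, with TMM-adjusted library sizes. Cardiomyocyte markers summed to between 79222 and 87377 CPM in sham and between 56341 and 77614 CPM in TAC, and lymphocyte markers to at most 2.93 CPM in any library. TAC replicate 3 stood apart from the other TAC libraries. It had the lowest cardiomyocyte sum (56341 CPM), 573 CPM of activated fibroblast markers against 183 and 198 in the other TAC libraries and 82.3 to 90.6 in sham, and 1608 CPM of fibroblast markers against 411 to 638 in the other 5 libraries. Endothelial markers summed to 694 CPM in it against 1066 and 1035 in TAC replicates 1 and 2 (688 to 829 in sham), smooth muscle markers to 144 against 266 and 268 (159 to 220) and erythroid markers to 700 against 1586 and 1633 (322 to 1057). Of the first lists, 0 of 10 cardiomyocyte, 2 of 7 fibroblast and 5 of 6 activated fibroblast markers were called, all higher in TAC. Also called higher were 1 of 4 tested atrial, 1 of 6 endothelial, 1 of 5 pericyte and 1 of 4 smooth muscle markers. In the macrophage and erythroid lists 0 of 5 and 0 of 3 tested markers were called. Over all tested genes 4.71% were called higher and 2.29% lower. Fewer cells of a type and less RNA per cell cannot be told apart in bulk tissue. Mitochondrial genes and their copies on chromosome 1 took 18.4% to 23.6% of the counts in sham and 28.0% to 36.1% in TAC.

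No SR or hnRNP gene passed the test between TAC and sham, although most of them had a higher mean in TAC. With edgeR's quasi-likelihood test and a Benjamini-Hochberg adjusted p under 0.05 over all 8795 genes, 0 of 26 members were called higher and 0 lower, against 4.71% and 2.29% of all tested genes. At an unadjusted p under 0.05, 14 members were higher and 1 was lower, against 16.2% and 11.9% of all tested genes. The log2 fold change, positive where TAC is higher, was above 0 for 22 members and below 0 for 4. Its median was 0.37 over the members and -0.01 over all tested genes, and it ranged from -0.48 for Hnrnpl to 0.83 for Hnrnpu.

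The calls depended on the count model, on the scaling and on which libraries were included. DESeq2 called 8 members higher and 0 lower, against 11.7% of all 8795 tested genes called higher and 617 genes called lower. These 8 were Hnrnpa2b1, Hnrnpdl, Hnrnpu, Srsf1, Hnrnpc, Hnrnph2, Srsf5 and Hnrnpm. Without TAC replicate 3, edgeR called 4 members higher (Hnrnpa2b1, Hnrnph1, Srsf1 and Hnrnpa3) and 1 lower (Hnrnpul1), against 9.24% and 10.1% of all tested genes. Of these, Hnrnpa3 had passed the level filter only through its TAC libraries, so the filter favoured its direction. Without sham replicate 1 it called 1 member higher, Hnrnpu (adjusted p = 0.045), against 3.35% of all tested genes. Another scaling within edgeR called 1 member higher (Hnrnpa2b1, DESeq2's size factors) or 2 (Hnrnpa2b1 and Hnrnpdl, upper quartile). Those scalings called 440 and 555 of all 8795 tested genes higher. Limma on log2(FPKM + 1) called 1 member, Hnrnpl, lower, against 3.84% of all tested genes. With library totals in place of TMM the median of all genes shifted to -0.14, and with limma on log2(FPKM + 1) to -0.13. Relative to that shift the members' median was 0.40 and 0.31.

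In CPM, the 3 TAC libraries all lay above the 3 sham libraries for 13 tested members and all below for 1, against 17.7% and 17.1% of all tested genes. In FPKM the counts were 6 and 2, against 11.6% and 25.4% of all tested genes. FPKM carries no TMM scaling. The 30 genes together held 632 to 732 CPM in sham and 783 to 853 CPM in TAC, a ratio of the means of 1.20. As a share of all estimated counts they held 0.070% in sham and 0.078% in TAC, a ratio of 1.10, and the ratio was 1.29 once mitochondrial genes and their chromosome 1 copies were left out.

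**Figure D1:**
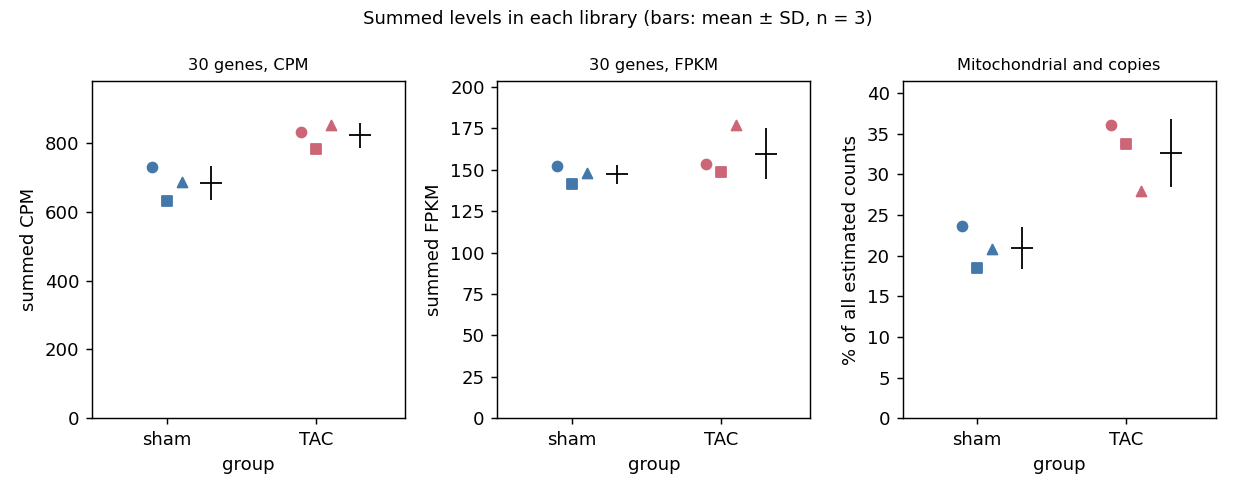
Summed CPM (left) and FPKM (middle) of the 30 genes and the percentage of estimated counts in mitochondrial genes and their chromosome 1 copies (right), for each sham and TAC library, with circles, squares and triangles for replicates 1, 2 and 3. The CPM sums do not overlap between groups (at most 732 in sham, at least 783 in TAC), whereas the FPKM sums do.

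**Figure D2:**
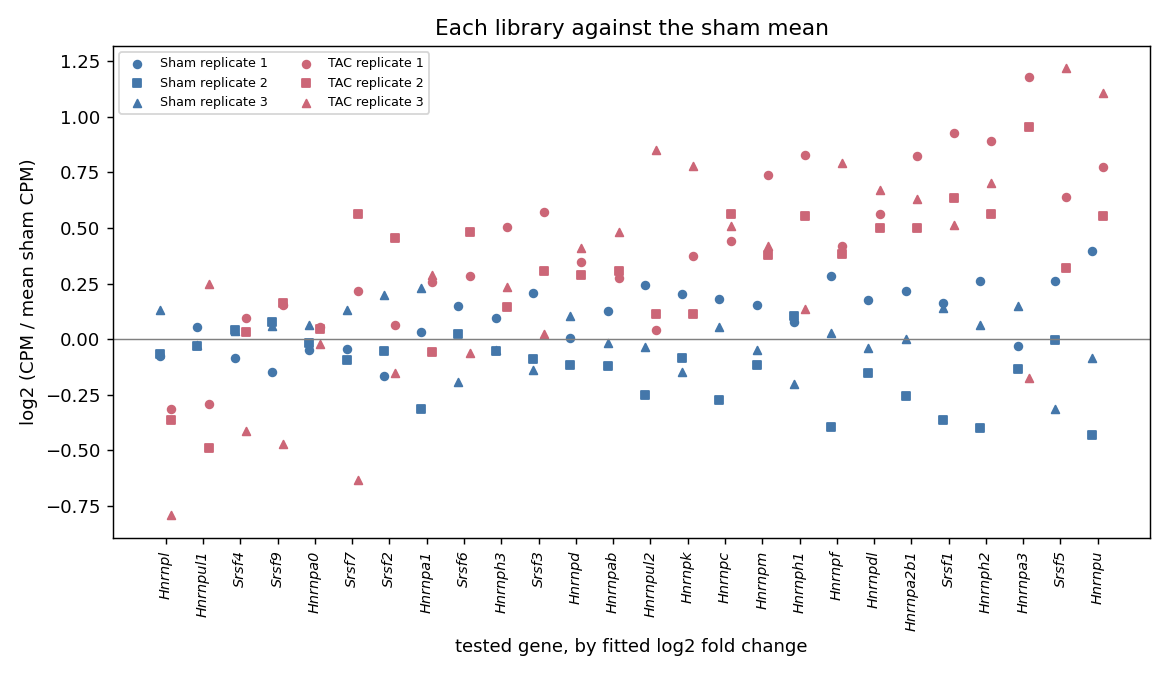
Each tested gene's CPM in each library as log2 of its ratio to the sham mean, in order of the fitted log2 fold change. Most TAC points lie above the sham points on the right, and TAC replicate 3 (triangles) is the highest TAC library for Srsf5, Hnrnpu, Hnrnpk and Hnrnpul2 and the lowest for Hnrnpl, Srsf7, Srsf9 and Hnrnpa3.

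Of the 8 tested SR genes, 6 had a positive and 2 a negative log2 fold change (median 0.20). At an unadjusted edgeR p under 0.05, 2 were higher and 0 lower, against 16.2% and 11.9% of all tested genes. The SR median was 0.39 without TAC replicate 3 and 0.04 without TAC replicate 2. It was 0.06 with library totals and 0.03 with limma on log2(FPKM + 1), where the median of all genes was -0.14 and -0.13. Srsf1 (chr11:88047373-88053755), the founding SR protein, which binds purine-rich exon enhancers, had 9.83, 6.81 and 9.68 CPM in sham and 16.7, 13.6 and 12.5 CPM in TAC. Every TAC library was above every sham library, by a log2 fold change of 0.70 ± 0.21 (SE; edgeR adjusted p = 0.072). DESeq2 gave an adjusted p of 0.014. Its close relative Srsf9 averaged 6.59 ± 0.55 CPM over the sham and 6.49 ± 1.51 CPM over the TAC libraries (SD, n = 3 each), with TAC replicate 3 the lowest library at 4.75 CPM.

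Srsf5 (chr12:80945504-80950507) had the largest log2 fold change of the SR genes. It measured 29.9, 24.9 and 20.1 CPM in sham and 38.9, 31.2 and 58.1 CPM in TAC, without overlap. The fitted value was 0.77 ± 0.25 (edgeR adjusted p = 0.090; DESeq2 adjusted p = 0.025), and 0.49 without TAC replicate 3, whose level was the highest of the 6. Srsf6, of the same subgroup with a pair of RNA-binding domains, had 38.8, 35.6 and 30.6 CPM in sham and 42.6, 48.9 and 33.5 in TAC. Its groups overlapped, and the log2 fold change of 0.25 ± 0.17 was not distinguishable from 0 (adjusted p = 0.39).

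Srsf4 (chr4:131873617-131901706), the third gene of that subgroup, had 41.1, 44.9 and 44.7 CPM in sham and 46.5, 44.5 and 32.8 in TAC. TAC replicate 3 lay below the other 5 libraries and the remaining TAC libraries within or above the sham range (log2 fold change -0.08 ± 0.16, adjusted p = 0.80; 0.06 without TAC replicate 3). In FPKM all 3 TAC libraries of Srsf4 (11.1, 10.7 and 8.96) were below the sham libraries (11.2, 12.8 and 12.3), the closest pair differing by less than 0.1 FPKM. Of its exonic bases 43.0% overlap Gm12992 on the other strand.

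Srsf2, which acts at exon enhancers and has also been linked to transcription elongation, had 23.97, 25.9 and 30.9 CPM in sham and 28.1, 36.9 and 24.3 in TAC. The groups overlapped, with TAC replicate 2 above the sham range (log2 fold change 0.15 ± 0.19, adjusted p = 0.67, with a negative sign under limma on FPKM). Srsf3 and Srsf7, which link splicing to nuclear export of mRNA, had log2 fold changes of 0.32 ± 0.19 and 0.13 ± 0.29 (adjusted p = 0.31 and 0.81). The Srsf7 libraries overlapped, with 5.72 CPM in TAC replicate 3 and 13.1 in TAC replicate 2 against 8.31 to 9.72 in sham. Its sign was negative with library totals and with limma on FPKM, fits in which the median of all genes was also negative. It was negative too with GC and length trends removed (-0.43), and reached -0.15 with a library left out.

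Among the 18 tested hnRNP genes, 16 had a positive and 2 a negative log2 fold change (median 0.48). At an unadjusted edgeR p under 0.05, 12 were higher and 1 lower, against 16.2% and 11.9% of all tested genes. Without TAC replicate 3 the hnRNP median was 0.37, below the SR median of 0.39 in that fit, so the order of the families rests on that library. Hnrnpa2b1 (chr6:51460932-51469894), an A/B-type protein that binds UAG-containing RNA and also carries RNA in transport granules, came closest to the threshold. Its levels were 39.8, 28.7 and 34.3 CPM in sham and 60.6, 48.5 and 53.0 CPM in TAC. The lowest TAC library was above the highest sham library (log2 fold change 0.66 ± 0.16, edgeR adjusted p = 0.051). DESeq2 gave an adjusted p of 0.0052, and edgeR gave 0.027 without TAC replicate 3 and 0.049 with DESeq2's size factors. With any other single library left out, edgeR gave 0.056 to 0.19. It gave 0.090 with library totals and 0.11 without the level filter, and limma on log2(FPKM + 1) gave 0.091.

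The other A-type genes did not share this separation. Hnrnpa1, the classic repressor of exon inclusion, had 16.1 to 23.4 CPM in sham and 19.2 to 24.4 in TAC (log2 fold change 0.17 ± 0.19, adjusted p = 0.59). Hnrnpa0 had 24.98, 25.5 and 26.9 CPM in sham and 26.8, 26.6 and 25.4 in TAC, which is less than the spread between replicates (log2 fold change 0.03 ± 0.13, adjusted p = 0.92). The sign of Hnrnpa0 was negative with library totals and with limma on FPKM, fits in which the median of all genes was also negative. Without the level filter (-0.076) and with a filter of a mean count of 100 or more (-0.046) it was negative as well. The median of all genes in those fits was 0.059 and 0.00015, and the cause of the sign change was not tested. Hnrnpa3 had 4.79, 4.47 and 5.43 CPM in sham and 11.1, 9.47 and 4.33 in TAC. TAC replicate 3 was below all sham libraries while the other TAC libraries were well above them, and the log2 fold change went from 0.76 ± 0.33 (adjusted p = 0.17) to 1.07 (adjusted p = 0.011) without it. Hnrnpa3 is also the 1 tested member whose sham mean FPKM was below 1. It passed the filter through its TAC libraries and had to be higher there in mean FPKM. It therefore adds no support to the counts of higher members that include it.

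Hnrnpc (chr14:52073377-52104028), whose tetramer binds uridine tracts and packages nascent RNA, had 37.8, 27.5 and 34.6 CPM in sham and 45.3, 49.2 and 47.5 in TAC. The TAC libraries were close together and above every sham library (log2 fold change 0.51 ± 0.15, edgeR adjusted p = 0.077; DESeq2 adjusted p = 0.024). The D-type genes encode proteins that bind AU-rich elements, and all 3 were without overlap in CPM (17.7% of all tested genes), but only Hnrnpdl was in FPKM (11.6%). Hnrnpdl (chr5:100033577-100039664) had 11.2, 8.92 and 9.64 CPM in sham and 14.7, 14.0 and 15.8 in TAC, a log2 fold change of 0.58 ± 0.16 (edgeR adjusted p = 0.066; DESeq2 adjusted p = 0.0082).

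Hnrnpab (chr11:51600100-51606847) was the most abundant of the 30 genes per length, with a mean of 24.9 FPKM. It had 71.1, 59.8 and 64.2 CPM in sham and 78.6, 80.3 and 90.8 in TAC (log2 fold change 0.36 ± 0.13, adjusted p = 0.13). In FPKM its groups overlapped, with 21.9 to 24.7 in sham and 24.1 to 31.8 in TAC, and 29.1% of its exonic bases overlap Phykpl on the other strand. Hnrnpd, which encodes AUF1, had 11.8 ± 0.90 CPM in sham and 15.1 ± 0.64 in TAC, and its groups met in FPKM (sham up to 1.68, TAC from 1.68; log2 fold change 0.35 ± 0.15, adjusted p = 0.16).

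The F and H proteins bind G-rich runs, and all 4 of their genes were without overlap in CPM (17.7% of all tested genes), but only Hnrnph2 was in FPKM (11.6%). Hnrnph2 (chrX:134601179-134607060) had 6.16, 3.90 and 5.37 CPM in sham and 9.55, 7.61 and 8.37 in TAC. That is a log2 fold change of 0.73 ± 0.22 (edgeR adjusted p = 0.078; DESeq2 adjusted p = 0.018). Hnrnpf had 23.8, 14.8 and 19.9 CPM in sham and 26.1, 25.4 and 33.8 in TAC, with TAC replicate 3 the highest (log2 fold change 0.54 ± 0.21, adjusted p = 0.14). Hnrnph1 and Hnrnph3 had log2 fold changes of 0.53 ± 0.21 and 0.30 ± 0.18 (adjusted p = 0.14 and 0.32), and Hnrnph1 reached an adjusted p of 0.032 without TAC replicate 3.

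Hnrnpm (chr17:33646233-33686860), which binds GU-rich RNA, had 10.9, 9.06 and 9.51 CPM in sham and 16.4, 12.8 and 13.2 in TAC. The groups did not overlap (log2 fold change 0.52 ± 0.17, edgeR adjusted p = 0.098; DESeq2 adjusted p = 0.035), and 14.7% of its exonic bases are shared with Marchf2 on the same strand, so its counts are uncertain to that extent. Hnrnpk, a poly(C)-binding protein gene, overlapped between groups, with 34.5 to 44.0 CPM in sham and 41.3 to 65.6 in TAC. Its highest library was TAC replicate 3, and the log2 fold change of 0.45 ± 0.19 (adjusted p = 0.18) was 0.25 without it.

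Hnrnpl (chr7:28808541-28822266), which binds CA repeats and takes part in splicing and polyadenylation, was the 1 member with all TAC libraries below all sham libraries in CPM. Its levels were 82.0, 82.3 and 94.6 CPM in sham and 69.4, 67.0 and 49.8 in TAC, with TAC replicate 3 the lowest. The log2 fold change was -0.48 ± 0.16 (edgeR adjusted p = 0.10) and -0.34 without that library. On the log2(FPKM + 1) scale limma gave -0.58 with an adjusted p of 0.046. Its paralogue Hnrnpll, known for regulating splicing in lymphocytes, was below the level filter and had the opposite order, with 3.65, 2.71 and 4.20 CPM in sham and 6.83, 5.49 and 6.58 in TAC.

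Hnrnpu (chr1:178321108-178337728), the scaffold attachment factor that binds chromatin-associated RNA, had the largest log2 fold change of all tested members. It measured 25.7, 14.5 and 18.5 CPM in sham and 33.5, 28.7 and 42.2 in TAC, without overlap. The fitted value was 0.83 ± 0.24 (edgeR adjusted p = 0.069; DESeq2 adjusted p = 0.011). Sham replicate 2 was the lowest and TAC replicate 3 the highest of the 6 libraries. In FPKM the groups of Hnrnpu overlapped by a narrow margin, with 2.14 in sham replicate 1 and 2.11 in TAC replicate 2.

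The values of the other U-type genes turned on TAC replicate 3. Hnrnpul1 had 78.9, 74.3 and 74.6 CPM in sham and 62.0, 54.1 and 90.2 in TAC. Without that library its log2 fold change went from -0.14 ± 0.19 (adjusted p = 0.68) to -0.39 (adjusted p = 0.045). Hnrnpul2 had 17.0 to 23.9 CPM in sham and 20.8, 21.9 and 36.4 in TAC, and its log2 fold change went from 0.38 ± 0.25 (adjusted p = 0.35) to 0.08.

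The 4 members below the level filter were Srsf10, Srsf11, Hnrnpll and Hnrnpr, with mean FPKM between 0.31 and 0.77. Their FPKM depends on the length used. For 99.3% of the 8481 genes with over 200 counts in every library and an annotated length, the length behind the deposited FPKM matched the union of all annotated exons within 0.1 log2. That union counts retained introns and rarely used exons and came to 22199 bases for Hnrnpr and 11677 for Hnrnpll. The longest coding transcript has 21452 bases for Hnrnpr and 3116 for Hnrnpll. In CPM per length of that transcript, Hnrnpr was still at place 30 of 30, Srsf10 at 28, Hnrnpll at 27 and Srsf11 at 23. In an edgeR fit without the filter, on 23834 genes, their log2 fold changes were 0.58, 0.41, 0.74 and 0.66, and none was called (adjusted p = 0.30, 0.30, 0.12 and 0.12). With a filter of a mean count of 100 or more in place of FPKM, 30 members entered the test and 0 were called. In that edgeR fit 589 of all 11307 genes were called higher and 373 lower. The adjusted p was 0.062 for Hnrnpll and 0.060 for Hnrnpr.

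Ranked by level per length, Hnrnpab was first, followed by Hnrnpl at 11.8 FPKM and Srsf4 at 11.2 FPKM, whose ranges overlapped. The next places, from Hnrnpa0 at 9.13 FPKM down to Hnrnpa2b1 at 6.21 FPKM, held 10 genes whose ranges over the 6 libraries overlapped with those of their neighbours. The place of a gene depended on the length. When CPM was divided by the length of the longest coding transcript, Hnrnpa2b1 moved from place 13 to place 3 of 30, while Hnrnpab and Hnrnpl kept places 1 and 2.

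**Figure D3:**
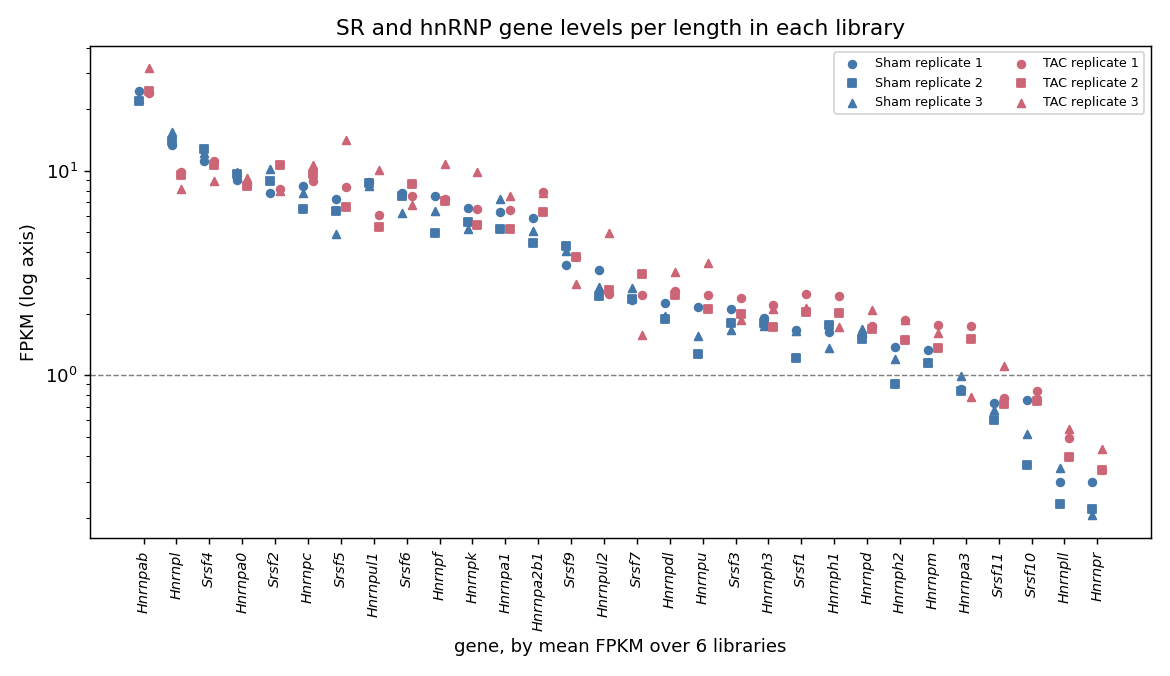
FPKM of each of the 30 genes in each library on a log axis, ordered by the mean over the 6 libraries, with the filter level of 1 FPKM as a dashed line. Hnrnpab stands above the others at 21.9 to 31.8 FPKM, the means of the 4 genes on the right lie below the filter, and Srsf5, Hnrnpf, Hnrnpk and Hnrnpul1 have their highest value in TAC replicate 3.

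The members' log2 fold changes were ordered by the GC content of their transcripts, and so were those of all genes. The GC content of the longest transcript had a median of 43.9% over the 26 tested members and 52.1% over all tested genes. Over the 26 members, Spearman's rho between log2 fold change and GC content was -0.67 (Pearson's r -0.71), and over 8790 tested genes with an annotated transcript it was -0.49 (r -0.43). The points are genes from the same 6 libraries and are not independent replicates. The 15 members with GC below 45% all had a positive log2 fold change, with a median of 0.51, and the 11 members at or above 45% had a median of 0.15 with 7 positive. In the bin from 40% to 45% GC, the median was 0.45 over 13 members and 0.51 over all 977 genes of the bin. In the bin from 45% to 50%, it was 0.38 over 7 members and 0.16 over 2036 genes.

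With smooth trends over GC content and length removed from each library, the members' median log2 fold change was 0.08, with 16 positive, 10 negative and 0 called, against 2.33% of all tested genes called higher and 1.97% lower. The hnRNP median was then 0.17 and the SR median -0.08, or 0.12 and 0.08 with trends over the longest coding transcript. The 15 members below 45% GC went from a median of 0.51 to -0.01, whereas the 11 members at or above 45% had 0.20. Over the 26 members rho with GC content was then 0.17. The source of the GC trend was not tested, and a difference that the genes' own regulation placed along GC content would be removed with it.

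Gene by gene, the members differed in how far the value depended on that trend. Hnrnpc went from a log2 fold change of 0.51 to 0.03, Hnrnpk from 0.45 to -0.01 and Srsf5 from 0.77 to 0.14. Srsf1 went from 0.70 to 0.15, Hnrnph2 from 0.73 to 0.16 and Hnrnpa3 from 0.76 to 0.17 (edgeR adjusted p = 0.61, 0.58 and 0.80). Srsf3, Srsf6, Srsf7, Hnrnpa1, Hnrnpd, Hnrnph1 and Hnrnph3 went from a positive to a negative value, between -0.43 and -0.12. Hnrnpa2b1 had 0.27 ± 0.13 in place of 0.66 (edgeR adjusted p = 0.26) and Hnrnpu 0.26 ± 0.13 in place of 0.83 (adjusted p = 0.26). With GC content and length taken from the longest coding transcript, Hnrnpa2b1 had 0.13 (adjusted p = 0.54), Hnrnpu 0.19, Srsf5 0.29 and Hnrnph1 0.16.

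A set of hnRNP genes between 46% and 50% GC kept nearly the same or most of their value, among them Hnrnpm (0.53 ± 0.19, adjusted p = 0.13), Hnrnpf (0.46 ± 0.17, adjusted p = 0.15) and Hnrnpdl (0.37 ± 0.13, adjusted p = 0.13). Hnrnpab (0.33 ± 0.11, adjusted p = 0.11) and Hnrnpul2 (0.36 ± 0.16, adjusted p = 0.22) did so too. These genes were picked out after their values were seen. The trend removed from them, TAC minus sham in log2, was 0.01 for Hnrnpm, 0.08 for Hnrnpf, 0.22 for Hnrnpdl, 0.03 for Hnrnpab and -0.002 for Hnrnpul2. Little was removed at their GC content and length, so that they kept their values is no test of them. Hnrnpl, at 54.2% GC, stayed below 0 at -0.27 ± 0.18 (adjusted p = 0.40).

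**Figure D4:**
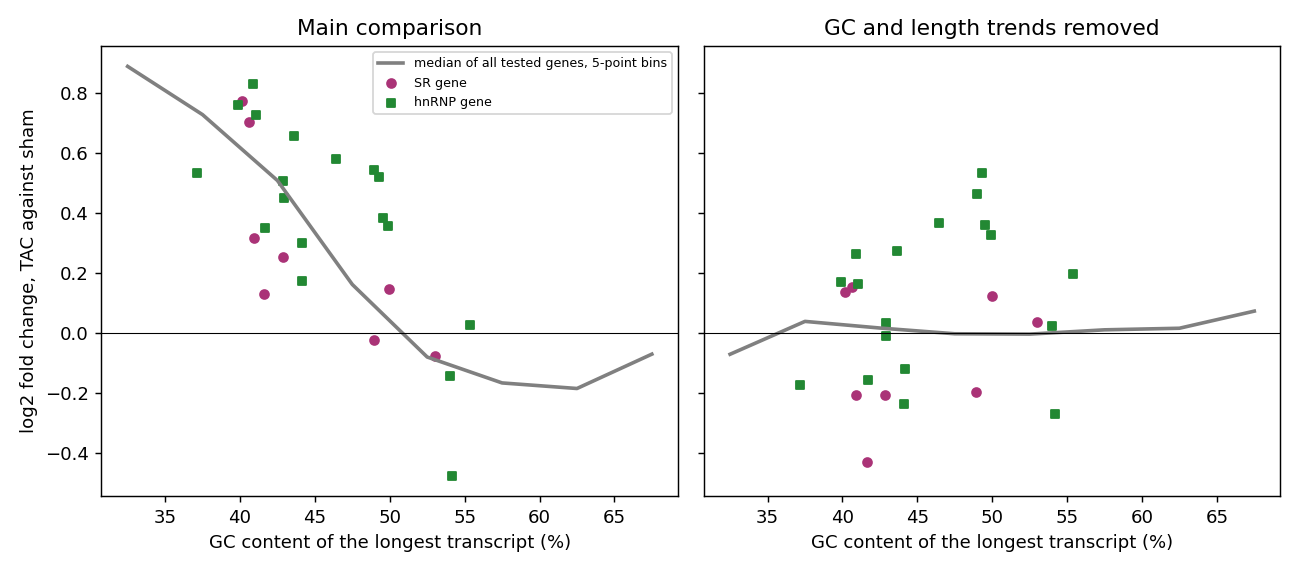
Log2 fold change of each tested SR (circles) and hnRNP (squares) gene against the GC content of its longest transcript, in the main comparison (left) and with trends over GC and length removed (right), with the median of all tested genes in bins of 5 percentage points as a grey line. The members below 45% GC lie near the falling line on the left (their median is 0.51) and around 0 on the right (-0.01).

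**Figure D5:**
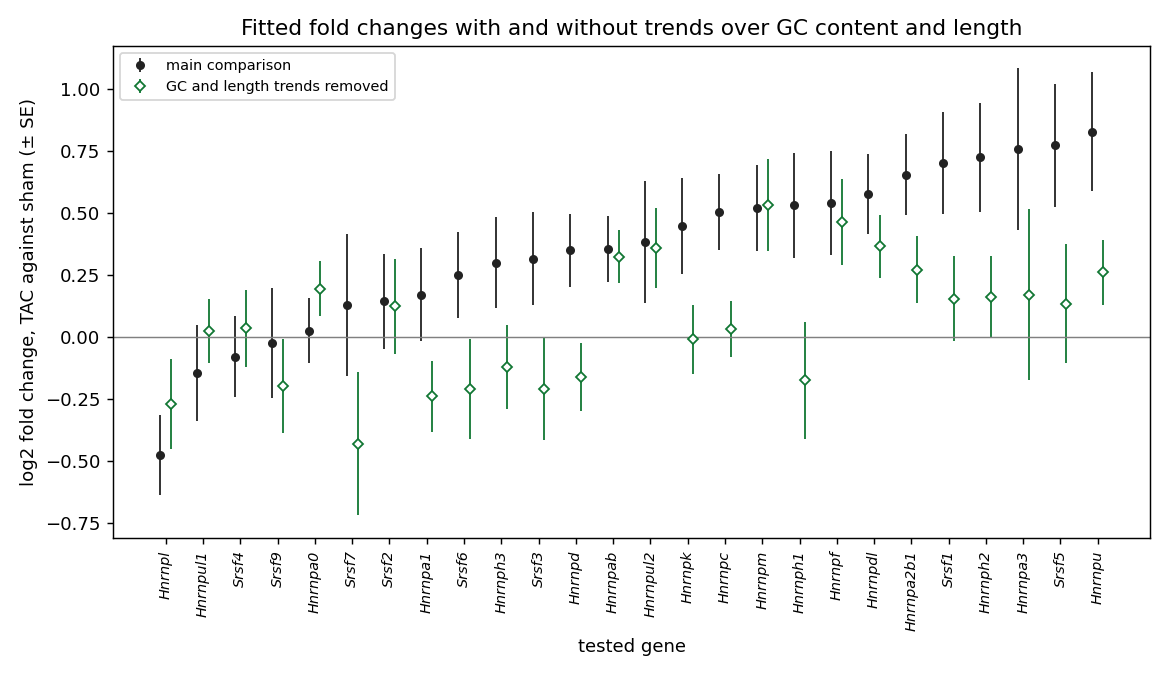
Fitted log2 fold change ± SE of each tested gene in the main comparison (filled circles) and with trends over GC content and length removed (open diamonds). Hnrnpm, Hnrnpf, Hnrnpab, Hnrnpul2 and Srsf2 have nearly the same value in both fits, while Srsf5, Srsf1, Hnrnpu and Hnrnph2 drop by more than their SE. How far a value moves follows largely from the gene's GC content and length.

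The gene-level counts cannot show which transcripts of a gene were present. GENCODE M21 annotates a transcript subject to NMD for 19 of the 30 genes (9 of 10 SR and 10 of 20 hnRNP genes), a retained-intron transcript for 22, and at least 1 of these for 24. Hnrnpk has 34 annotated transcripts, of which 3 are NMD and 13 retained-intron transcripts, and Srsf11 has 19, of which 3 and 11 are. A gene's count sums over productive and unproductive forms, so it does not give the amount of coding mRNA. Over 25% of the exonic bases of Srsf2, Srsf4, Hnrnpab and Hnrnpf are shared with a gene on the opposite strand, and the strand setting of the counting is unknown, so the counts of these 4 genes are uncertain to that extent.

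The genes that work beside the SR proteins and hnRNPs were read from 5 lists. Over all tested genes, edgeR called 4.71% higher and 2.29% lower. Of 13 tested genes for hnRNP-type proteins with other names, 0 were called (median log2 fold change 0.09). The poly(C)-binding protein genes Pcbp1 and Pcbp2, the most abundant per length of that list, had 134 ± 17.7 and 176 ± 9.61 CPM in sham and 141 ± 13.4 and 205 ± 5.22 CPM under TAC (n = 3 per group, SD; edgeR adjusted p = 0.78 and 0.28). Of 15 tested SR-related and exon junction genes 0 were called (median -0.13). In that list Eif4a3, the exon junction helicase, had a log2 fold change of -0.13 ± 0.16 and Scaf1 of -0.37 ± 0.13 (adjusted p = 0.64 and 0.10).

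Of 9 tested genes for kinases, phosphatases and importers of SR proteins, 1 was called higher and 0 lower, against 4.71% and 2.29% of all tested genes. A single call says little about a list of this size. Ppp1cb, a catalytic subunit of protein phosphatase 1, which removes phosphate from SR proteins among many targets, had 28.7, 19.4 and 27.3 CPM in sham and 45.2, 45.7 and 49.2 in TAC (log2 fold change 0.89 ± 0.17, edgeR adjusted p = 0.030). Of 31 tested core snRNP genes 1 was called higher and 0 lower (median -0.07), which is no more than the share over all tested genes. That gene was Snrpe, a protein of the Sm ring, at 1.18, 0.87 and 0.95 CPM in sham and 2.20, 4.89 and 2.50 in TAC (log2 fold change 1.67 ± 0.35, adjusted p = 0.035). Its mean FPKM was 0.71 in sham and 2.04 in TAC, so it passed the level filter through its TAC libraries and had to be higher there.

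Of 10 tested NMD genes 1 was called higher and 0 lower (median -0.20), against 4.71% and 2.29% of all tested genes, and this too is a single gene. Etf1, the translation release factor eRF1, had 25.8, 17.3 and 24.5 CPM in sham and 45.6, 41.1 and 36.9 in TAC (log2 fold change 0.87 ± 0.18, edgeR adjusted p = 0.035). Neither Ppp1cb, Snrpe nor Etf1 was called with GC and length trends removed (log2 fold changes 0.34, 1.01 and 0.49, adjusted p = 0.16, 0.11 and 0.099). Leaving out any 1 of sham replicates 2 and 3 and TAC replicates 1 and 2 ended all 3 calls, and leaving out sham replicate 1 ended that of Snrpe, with the highest adjusted p at 0.12, 0.15 and 0.13.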

How the data were processed

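Per the labels' protocols, poly(A) RNA was purified and libraries were made with dUTP second-strand marking. The submitters' processing notes name cutadapt 1.9, HISAT2 2.0.4, StringTie 1.3.4d and the build GRCm38. For the counting step, annotation release, filters and strand setting nothing is given in the sources used. The authors deposited FPKM and whole-number counts per gene and library, per the file headers, and these were treated as estimated counts, in which counting error understates the uncertainty. The planned test for counts, edgeR's quasi-likelihood test, was applied to them.

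Genes averaging at least 1 FPKM were scaled by TMM and tested in edgeR 4.0.16 (R 4.3.3), and p-values were adjusted over all of them by Benjamini-Hochberg. SE is the log2 fold change divided by the square root of F. CPM are given as mean ± SD or per library. Alternatives were DESeq2 1.42.0, limma 3.58.1 on log2(FPKM + 1) or log2(FPKM + 0.1), other scalings and filters, robust moderation, a replicate block, each library left out, and lowess trends over GC content and length (span 0.3, 3 rounds, GENCODE M21, with 24547 of 24602 identifiers matched) used as offsets. The edgeR test, with and without trends removed, was also run on simulated counts, whose outcome is not given here.

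The members and gene lists were chosen with earlier results of these data known. Values in every library are given by rule for called members, for up to 10 members without overlap between groups with the lowest adjusted p, and for the 10 with the highest mean FPKM. In each other list up to 4 called genes, or else the 2 with the highest mean FPKM, are named.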

Additional observations from a re-analysis of the deposited data

How the results depend on the processing

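Of the 26 tested members, 12 kept their direction in every alternative fit that tested them (the fit at a mean FPKM of 5 held 13 of the 26) and 12 passed the threshold in at least 1. The same counts over all genes are not given here. The filter of a mean count of 100, GC content from the longest coding transcript and FPKM for the overlap counts were chosen after seeing the data. Members called higher numbered 8 with DESeq2, 1 with DESeq2's size factors in edgeR, 2 with upper quartile scaling (hnRNP genes), and 0 to 4 with a library left out. Members called lower numbered 1 under limma with either pseudocount and 0 to 1 with a library left out. By family DESeq2 called 2 SR and 6 hnRNP genes, and with a library left out 0 to 1 SR and 0 to 4 hnRNP genes were called.

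The members' median log2 fold change was 0.18 and 0.20 under limma with pseudocounts of 1 and 0.1, 0.26 with library totals, 0.080 with GC and length trends removed (0.10 with the longest coding transcript), and 0.30 to 0.50 with a library left out. Members without overlap numbered 8 higher and 1 lower with library totals. In FPKM 6 were higher and 2 lower, against 11.6% and 25.4% of all tested genes. With a library left out 13 to 18 were higher and 1 to 2 lower, and groups of fewer libraries separate more easily. For library totals and the fits with a library left out, the share over all tested genes is not given, so those counts cannot be read as particular to the members. The members' share of counts, TAC over sham, was 1.29 without mitochondrial genes and copies.

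Same-numbered sham and TAC libraries did not deviate together (correlations of -0.10, 0.14 and -0.06), so the replicate numbers were not taken as pairs, and no sham library but the second correlated best with its own number. With the replicate block, 141 genes were higher and 42 lower and 0 members were called. With the block and trends removed, 104 and 45 genes were called, the members' median was 0.047, and the kinase, snRNP and NMD lists had 0 calls in both block fits.

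Over all genes, 414 higher and 201 lower became 1031 and 617 with DESeq2, 174 and 338 or 170 and 336 under limma with pseudocounts of 1 and 0.1, 157 higher with library totals, 163 and 122 without a filter, 143 and 68 at a mean FPKM of 5, 205 higher with trends removed (248 with the longest coding transcript), and 373 lower at a mean count of 100. With DESeq2's size factors in edgeR 440 genes were higher and 201 lower, and with upper quartile scaling 555 and 164. The percentage of calls that were higher was 67.3% in the main comparison, 45.5% with library totals, 34.0% under limma and 54.2% with trends removed. With a library left out, 9 to 813 genes were higher and 3 to 892 lower, the lowest without sham replicate 2 and the highest without TAC replicate 3.

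Under DESeq2, the other hnRNP-type list had 2 genes higher and 0 lower of 13 tested, and the kinase list 1 and 1 of 9. The SR-related list had 2 and 1 of 15, the snRNP list 3 and 3 of 31 and the NMD list 3 and 1 of 10. Over all 8795 tested genes DESeq2 called 1031 higher and 617 lower. In other fits the calls were 1 SR-related gene with trends removed in either way and 2 snRNP genes under limma with a pseudocount of 0.1. They were 2 kinase and 2 snRNP genes at a mean count of 100, and 2 NMD genes under limma and with upper quartile scaling. The kinase and NMD lists had 0 calls with library totals, the kinase and snRNP lists 0 at a mean FPKM of 5, and all 3 had 0 without a filter and with trends removed. With a library left out the calls were 0 to 1 for other hnRNP-type, 0 to 2 for kinase, 0 to 2 for SR-related, 0 to 4 for snRNP and 0 to 4 for NMD genes.

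Several members changed sign. Hnrnpa0 was -0.11 and -0.12 under limma, -0.10 with library totals, -0.076 without a filter and -0.046 at a mean count of 100. Srsf2 was -0.014 and -0.016 under limma. Srsf7 was -0.053 and -0.087 under limma and -0.023 with library totals. Srsf9 was 0.043 with upper quartile scaling, and Srsf4 0.00091 at a mean FPKM of 5. With trends removed, with trends removed and the replicate block, and with trends over the longest coding transcript removed, Srsf3 was -0.21, -0.24 and -0.39, Srsf6 -0.21, -0.23 and -0.28, and Srsf7 -0.43, -0.51 and -0.50. In that order Hnrnpa1 was -0.24, -0.24 and -0.22, Hnrnpd -0.16, -0.16 and -0.26, Hnrnph3 -0.12, -0.12 and -0.18, and Hnrnpk -0.0086, -0.011 and -0.11. Srsf4 was 0.036, 0.019 and 0.11, and Hnrnpul1 0.024, 0.014 and 0.0088. Hnrnph1 was -0.17 and -0.18 in the first 2 of these, and Hnrnpc -0.032 and Srsf9 0.090 in the last. With a library left out, Hnrnpul1 ranged from -0.39 to 0.00333, Srsf2 from -0.039 to 0.27, Srsf4 from -0.17 to 0.064, Srsf7 from -0.15 to 0.40 and Srsf9 from -0.13 to 0.16. The median of all genes was itself negative with library totals (-0.14) and under limma with pseudocounts of 1 and 0.1 (-0.13 and -0.16). It was 0.059 without a filter and 0.00015 at a mean count of 100. Except for the changes built into the trend removal, the cause of the sign changes was not tested. The level filter left 4 members untested.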
